A study of Homo sapiens with 12 samples.

Results

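NTRK2, NTRK3, NGFR, BDNF, RET, GFRA1, GFRA2 and GFRA3 are 8 genes of neurotrophin and GDNF signalling, taken by name from the 19970 protein-coding genes annotated on the autosomes and the X chromosome. Their H3K27me3 was read from the peaks in each gene with 5 kb on each side, called the gene window here. The values come from SH-SY5Y cells, a human neuroblastoma line, whose chromatin was precipitated with an antibody against trimethylated lysine 27 of histone H3. The cells expressed Tau (WT) or lacked it, in the Tau-KO lines 231K and 232P, and each of the 3 genotypes had 2 samples with a peak list. The 6 input samples were not analysed here. Each Tau-KO genotype was 1 line, so the loss of Tau and other properties of that line cannot be told apart. No peak lay in the gene of Tau, MAPT, or its 5 kb flanks in any sample, and the genotype labels could not be checked from the peaks.

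Neurotrophins are secreted proteins that keep neurons alive and shape their synapses, and BDNF is one of them. They bind receptor tyrosine kinases of the NTRK family, of which NTRK2 is the receptor of BDNF and NTRK3 that of neurotrophin-3, and they all bind the p75 receptor NGFR. Ligands of the GDNF family bind a co-receptor on the cell surface, GFRA1, GFRA2 or GFRA3, which brings in the receptor tyrosine kinase RET. SH-SY5Y cells come from the sympathetic lineage, in which RET is active, and they are often brought to a neuronal shape with retinoic acid and BDNF. H3K27me3 is placed by PRC2 and is typical of silent developmental genes, where it often covers CpG-rich starts.

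BDNF carried most of the H3K27me3 of these genes. Of the 98 peaks found in the 8 gene windows over all samples, 60, or 61.2%, were at BDNF. NGFR and NTRK3 had short peaks close to their starts in every sample. NTRK2, GFRA1 and GFRA2 had a few weak peaks in some samples, and RET and GFRA3 had none in any. A peak in the window in all 6 samples was found for 3 of the 8 genes, against 19.7% of all protein-coding genes, and no peak in any sample for 2 of 8, against 68.2%. A promoter mark, which is a peak that overlaps the 1 kb on either side of any annotated start by at least 1 bp, was found in all 6 samples at NGFR and BDNF, or 2 of 8 genes, against 11.4% of all genes. With so few genes these shares are a description only. Per sample, between 3 and 5 of the 8 genes had a peak, and the 8 windows held 14 to 20 peaks.

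**Figure D1:**
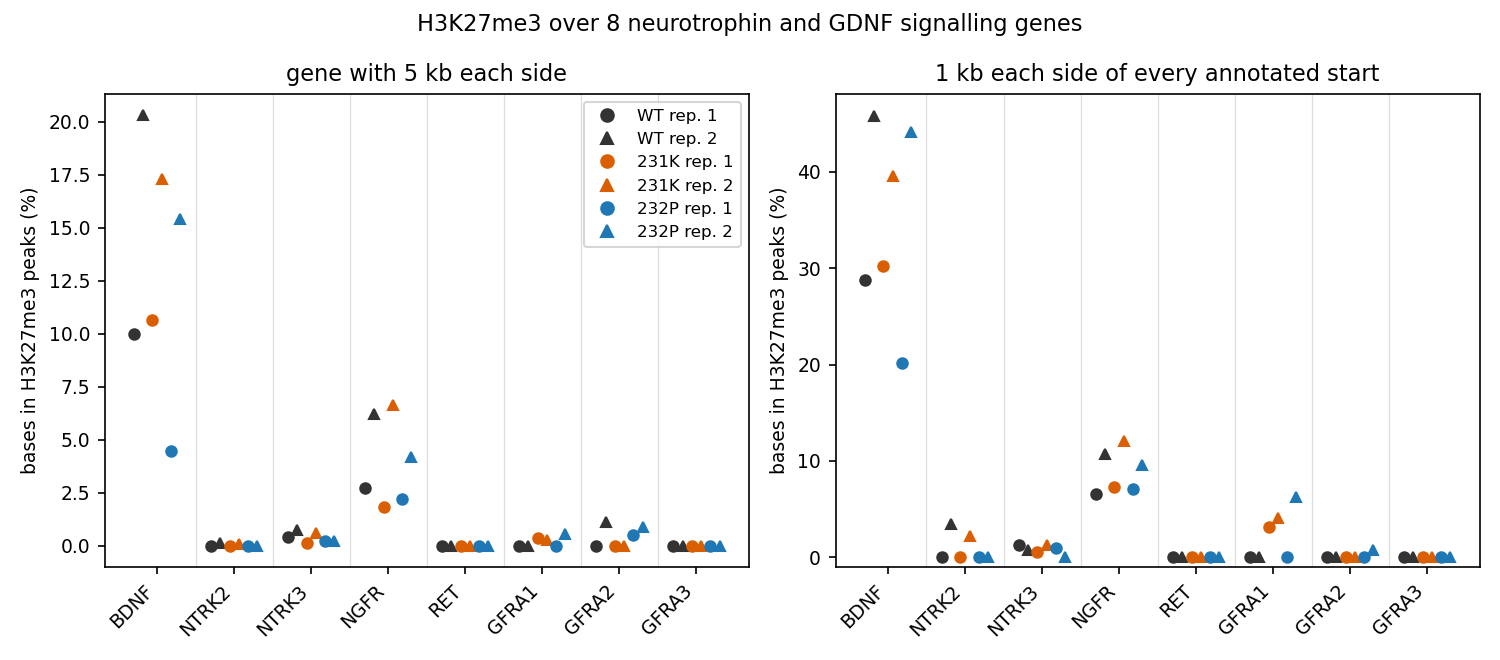
Percent of bases in H3K27me3 peaks (vertical axes) for the 8 genes, over the gene with 5 kb each side (left) and over 1 kb each side of every annotated start (right). Each point is 1 sample, with genotype by colour and replicate by shape. BDNF lies highest, at 4.45 to 20.3% of the gene window, and RET and GFRA3 lie at 0 in all samples.

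The samples differ in ways that the genotype does not explain, and this bears on every value below. The covered genome was 214 and 283 Mb in the WT pair, replicate 1 first, 197 and 290 Mb in the 231K pair and 70.3 and 212 Mb in the 232P pair. The relative depth, taken from the background of each list, was 100 and 66.6% of the deepest sample in WT, 94.8 and 68.7% for the 231K pair and 68.1 and 56.9% for the 232P pair. The smallest peak, whose width follows the fragment length used in peak calling, was 175 to 179 bp in the samples numbered 1 and 240 to 262 bp in those numbered 2. The list of 232P replicate 1 thus covered the least, and its peak names, like those of 232P replicate 2, begin with 231P although the labels say 232P. The study names 231P as a separate Tau-KO line in its RNA sequencing, and the line behind the 232P values could not be checked. The labels were followed. Because the samples differ by replicate number, differences are also set out separately for each number.

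BDNF (ENSG00000176697.20, minus strand, chr11:27654893-27722058 in hg38) is a neurotrophin gene with several starts that are used in different neurons and states of activity. It has 11 annotated starts, which fall into 3 stretches when 1 kb is taken on each side. The covered percent of its gene window was 10.0 and 20.3 in the WT pair, replicate 1 first, 10.6 and 17.3 in the 231K pair and 4.45 and 15.4 in the 232P pair. The samples numbered 2 were higher than those numbered 1 in all genotypes, and the genotypes overlapped. The mean was 15.2% ± 7.30 (SD, n = 2) in WT, 14.0% ± 4.71 (SD, n = 2) for 231K, and the 232P samples gave 9.94% ± 7.76 (SD, n = 2). In each sample BDNF was above 84.3 to 87.6% of all genes in this measure.

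The peaks at BDNF were denser around the starts than in the body. The covered percent of the promoters was 28.8 and 45.9 in WT, 30.2 and 39.6 for the 231K pair and 20.1 and 44.2 for the 232P pair. In the body, which is the window without the promoters, it was 7.11 and 16.4 in WT, 7.62 and 13.9 for the 231K pair and 2.04 and 11.02 for the 232P pair. The promoters were thus covered more than the body in each of the 6 samples. The stretch farthest upstream, chr11:27718747-27723058 with 4 starts, was covered by 40.9 and 63.5% in WT, 46.1 and 57.4% for the 231K pair and 36.2 and 56.7% for the 232P pair. The stretch with the main start, chr11:27698667-27702633 with 6 starts, was covered by 30.1 and 49.8% in WT, 28.2 and 40.3% for the 231K pair and 12.9 and 52.8% for the 232P pair. The third stretch, chr11:27658658-27660658 with 1 start close to the 3′ end of the gene, held no peak in any sample. The mark at BDNF was therefore at the upstream starts and their surroundings, and the last start was free of it at this depth.

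**Figure D2:**
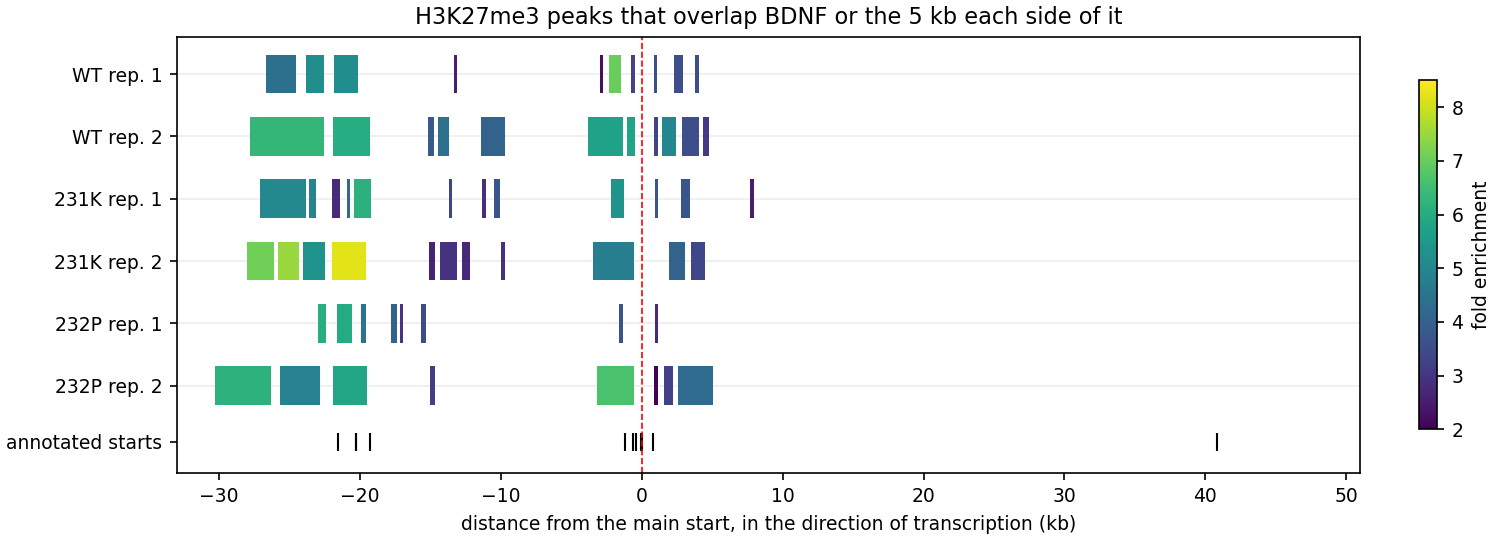
H3K27me3 peaks at BDNF by distance from the main start in kb (horizontal axis), with 1 row per sample and the fold enrichment as colour; ticks in the lowest row mark the annotated starts. Peaks lie around the upstream starts and on both sides of the main start (dashed line), and none lies near the start downstream.

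The strongest peak of BDNF had a -log10 q-value above 5 in every sample. In 232P replicate 1, 10381 of all 147118 peaks reached 5, and in 231K replicate 2, 50158 of 212347 did. The highest fold enrichment over the local background was 7.003 and 6.30 in WT, 6.15 and 8.21 for the 231K pair and 6.08 and 6.64 for the 232P pair. The -log10 q-value of the best peak was 9.49 and 7.84 in WT, 7.10 and 12.7 for the 231K pair and 5.98 and 7.79 for the 232P pair. These values depend on depth and are not comparable between lists beyond their order of size. The peaks at BDNF continued upstream of the gene. When peaks up to 5 kb apart were joined, the run that reached the upstream starts was 200158 and 110698 bp long in WT, 24299 and 74563 bp in 231K, and 7664 and 206454 bp in 232P. The 232P samples had the shortest and the longest run of all. Such runs depend on single gaps and were not tested.

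At BDNF, 3 regions lay in a peak in all 6 samples. The sequences of the first and second are shown whole, as the most reproducible part of the mark. The first, 103 bp long at chr11:27701945-27702047, lies a short way upstream of the main start. The second, 247 bp long at chr11:27721141-27721387, and the third, 213 bp long at chr11:27721874-27722086, are at the upstream starts. Of the third, 185 bases belong to annotated untranslated exons. In its place the 222 bases at chr11:27722059-27722280 are given, which lie just upstream of the farthest start and come from RefSeq's promoter (GRCh38.p14). Only the last 28 of them, next to the start, belong to the region in a peak of all 6 samples. The sequences are written 5′ to 3′ on the minus strand, and capitals mark CpG dinucleotides.
BDNF upstream of main start: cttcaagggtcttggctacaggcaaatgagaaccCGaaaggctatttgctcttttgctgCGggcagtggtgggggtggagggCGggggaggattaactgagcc
BDNF upstream starts: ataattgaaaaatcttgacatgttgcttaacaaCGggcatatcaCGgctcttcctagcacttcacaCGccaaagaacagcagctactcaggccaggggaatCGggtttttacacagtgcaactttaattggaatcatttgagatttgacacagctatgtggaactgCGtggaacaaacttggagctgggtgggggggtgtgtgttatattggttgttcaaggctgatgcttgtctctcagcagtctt
BDNF farthest start: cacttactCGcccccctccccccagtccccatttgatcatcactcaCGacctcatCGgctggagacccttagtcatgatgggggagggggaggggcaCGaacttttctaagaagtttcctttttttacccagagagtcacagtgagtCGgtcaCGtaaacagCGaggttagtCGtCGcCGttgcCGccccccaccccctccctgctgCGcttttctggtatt
The first region held 3 CpG, or 2.91 per 100 bases, and the second 5, or 2.02 per 100 bases. The 1 kb on each side of the main start held 7.55 per 100 bases.

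NGFR (ENSG00000064300.9, plus strand, chr17:49495293-49515008) encodes the p75 receptor that binds all neurotrophins. It had 1 or 2 peaks per sample, all of them in its first intron. The covered percent of the gene window was 2.73 and 6.21 in WT, 1.83 and 6.63 for the 231K pair and 2.20 and 4.19 for the 232P pair. As at BDNF, samples numbered 2 were higher in each genotype and the genotypes overlapped. The highest fold enrichment was 4.92 and 6.54 in WT, 5.30 and 4.23 for the 231K pair and 5.08 and 3.76 for the 232P pair. The nearest edge of a peak was 2603 to 2808 bp from the main start. The promoter mark of NGFR in all samples rests on a start annotated downstream of the main one, and the covered percent of its promoters was 6.61 and 10.7 in WT, 7.32 and 12.1 for the 231K pair and 7.10 and 9.59 for the 232P pair. The 79 bases at chr17:49498101-49498179, on the plus strand with CpG in capitals, were in a peak of every sample.
NGFR intron 1: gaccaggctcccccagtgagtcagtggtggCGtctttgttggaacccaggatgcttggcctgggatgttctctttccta

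NTRK3 (ENSG00000140538.17, minus strand, chr15:87859751-88256791) encodes the receptor of neurotrophin-3. The gene is 397041 bp long, so its few peaks near the start covered a small part of the window, with 0.42 and 0.72% in WT, 0.11 and 0.61% for the 231K pair and 0.20 and 0.24% for the 232P pair. Both 232P samples were below both WT samples, while 231K overlapped with WT. Within the replicate numbers, 231K minus WT was -0.31 and -0.11 percentage points, and 232P minus WT was -0.22 and -0.49. Among the 4630 genes with a mean of at least 1% covered, 53.9% had both 232P samples below both WT samples. NTRK3 itself is below this mean. BDNF and NGFR, the 2 of the 8 genes above it, had no such separation from WT in either line or direction, where the shares of genes were 12.7% below and 4.49% above for 231K and 0.367% above for 232P. The highest fold enrichment was 5.56 and 7.99 in WT, 4.10 and 4.58 for the 231K pair and 4.97 and 3.97 for the 232P pair. The promoter mark of NTRK3 was found in 2 WT, 2 231K and 1 of the 232P samples. Peaks with a -log10 q-value of 5 or more numbered 35320 and 45189 in WT, 36696 and 50158 for the 231K pair and 10381 and 29200 for the 232P pair. Among these peaks, the promoter mark of NTRK3 was found in both WT samples and in no Tau-KO sample. With each line taken alone, a mark in both WT samples and no sample of the line was found at 0.27% of all genes for 231K and 1.54% for 232P. NGFR was also one of the latter. The share for both lines at once was not counted. The part of depth in this pattern was not tested. All 6 samples had a peak in intron 3, with its summit 1661 to 1848 bp downstream of the main start, and 4 of them also had 1 or 2 peaks upstream of the start. Of the 336 bp shared by all samples, chr15:88254799-88255134, the middle 300 bases are shown on the minus strand, with CpG in capitals.
NTRK3 intron 3: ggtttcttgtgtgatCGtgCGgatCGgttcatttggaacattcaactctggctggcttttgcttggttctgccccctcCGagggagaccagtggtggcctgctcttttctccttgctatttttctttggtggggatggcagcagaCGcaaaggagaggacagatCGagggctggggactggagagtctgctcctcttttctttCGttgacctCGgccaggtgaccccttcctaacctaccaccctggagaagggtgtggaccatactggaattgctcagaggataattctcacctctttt

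**Figure D3:**
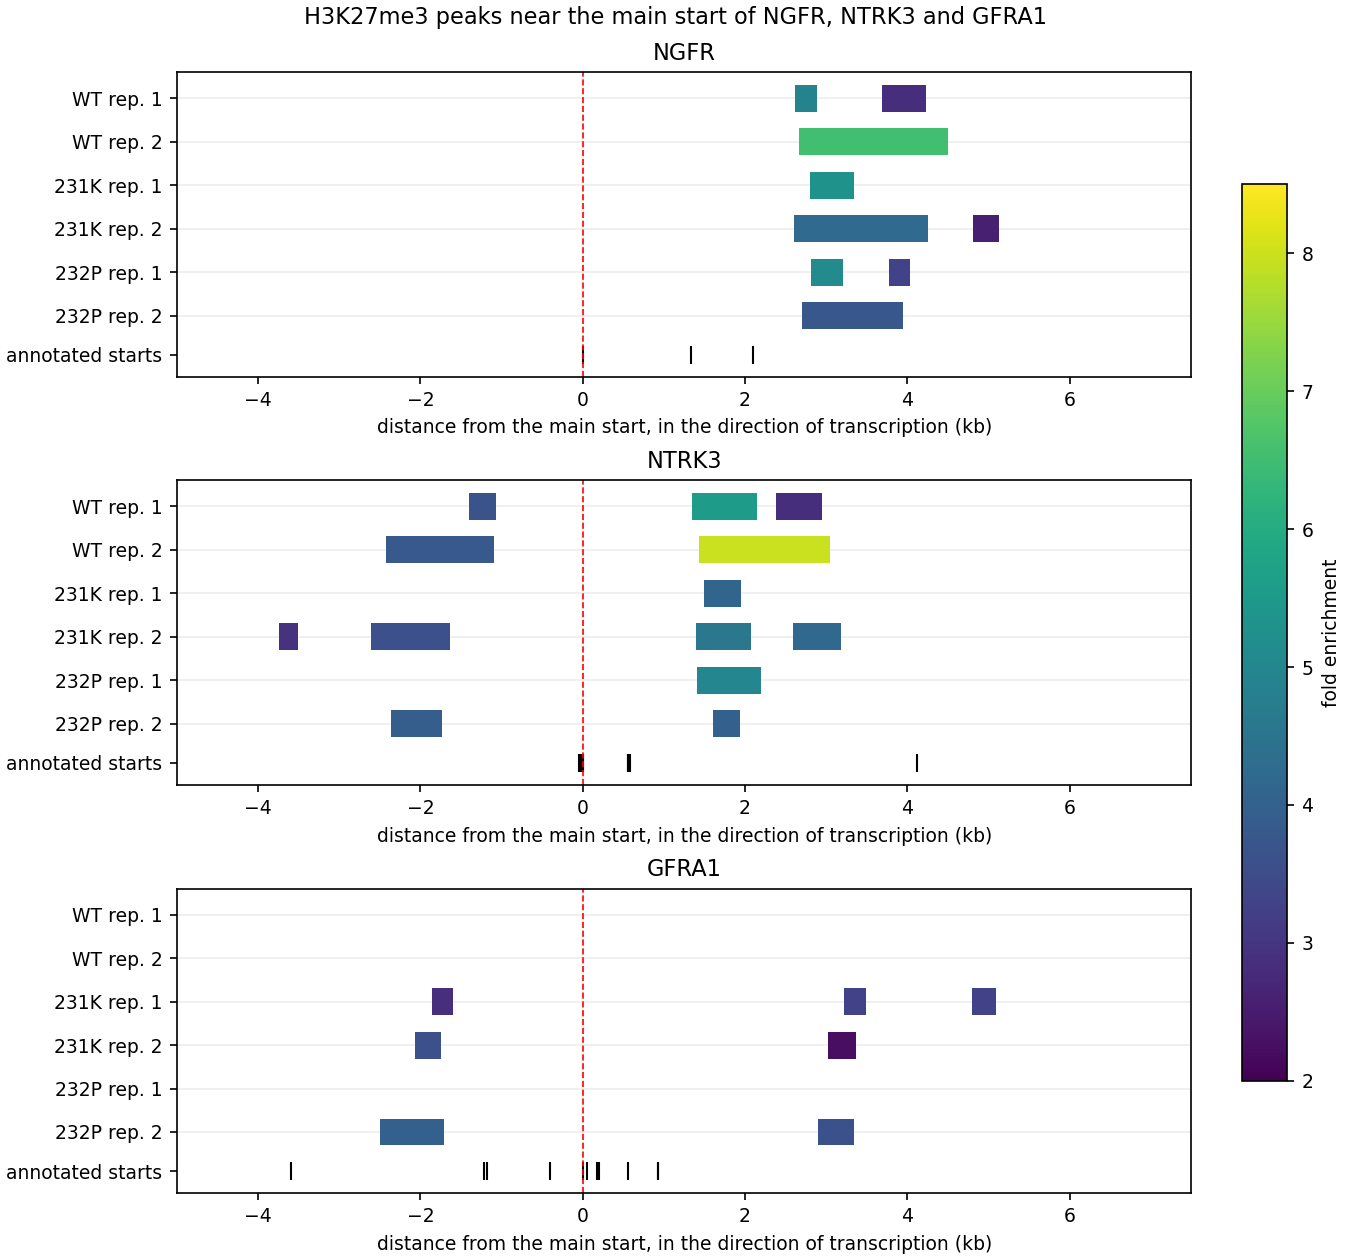
H3K27me3 peaks at NGFR, NTRK3 and GFRA1 by distance from the main start in kb (horizontal axis), with 1 row per sample and the fold enrichment as colour; ticks mark annotated starts. No peak touches a main start (dashed line), and the WT rows of GFRA1 are empty.

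NTRK2 (ENSG00000148053.18, plus strand, chr9:84668375-85095751) encodes the receptor of BDNF. It had 1 peak in WT replicate 2 and 1 in 231K replicate 2, which covered 0.12% and 0.08% of the window, and none in the other 4 samples. Both were in intron 2, with a fold enrichment of 3.24 and 2.89. They overlapped at one end only, between the annotated starts. The receptor of BDNF had far less of the mark than BDNF itself.

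RET (ENSG00000165731.21, plus strand, chr10:43077064-43130351) encodes the receptor tyrosine kinase shared by the GDNF ligands. No sample had a peak in its window, and the nearest peak was 98.3 to 137 kb away from the gene. Its start is the richest in CpG of the 8 genes, with 200 CpG in the 1 kb on each side, more than 96.1% of all genes. The 245 bases upstream of its first start, chr10:43076819-43077063 on the plus strand, are shown from RefSeq (GRCh38.p14) as the unmarked counterpart of BDNF, with CpG in capitals.
RET promoter: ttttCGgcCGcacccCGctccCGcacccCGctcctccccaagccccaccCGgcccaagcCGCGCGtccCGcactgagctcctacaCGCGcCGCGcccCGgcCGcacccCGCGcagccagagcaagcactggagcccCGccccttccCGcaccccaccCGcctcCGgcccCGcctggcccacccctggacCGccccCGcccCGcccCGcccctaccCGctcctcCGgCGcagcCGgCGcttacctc

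GFRA1 (ENSG00000151892.16, minus strand, chr10:116056925-116276803) encodes the co-receptor of GDNF. It was the one gene of the 8 with a promoter mark in both 231K samples and in no WT sample, a pattern found at 33 of all 19970 genes, or 0.165%. None of the 8 genes had a promoter mark in both 232P samples and no WT sample, against 0.0651% of all genes. The covered percent of its promoters was 0 in both WT samples, 3.12 and 4.04 in 231K, and 0 and 6.23 in 232P. The groups WT and 231K did not overlap, and 232P replicate 2 had the mark while 232P replicate 1 did not. The peaks were weak. At the promoter the fold enrichment was 2.87 and 3.59 in 231K and 3.97 in 232P replicate 2, from 6, 9 and 8 reads at the summit. With equal numbers of peaks per list, or with the lists matched on the relative depth of their background, which left 137350 to 198919 peaks, 1 of the 2 marks in 231K was left, and none of them had a -log10 q-value of 5 or more. A further peak of the same 3 samples lay in intron 3. The 2 regions shared by the 3 samples, chr10:116274948-116275058 upstream of the main start and chr10:116269867-116269983 in the intron, are shown on the minus strand with CpG in capitals. The first of them also lies in an exon of the annotated gene ENSG00000285587.
GFRA1 upstream: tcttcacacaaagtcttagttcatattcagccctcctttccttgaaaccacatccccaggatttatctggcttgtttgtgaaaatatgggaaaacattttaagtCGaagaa
GFRA1 intron 3: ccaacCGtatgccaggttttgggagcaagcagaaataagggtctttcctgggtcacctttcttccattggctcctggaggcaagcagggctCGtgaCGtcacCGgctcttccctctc

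GFRA2 (ENSG00000168546.11, minus strand, chr8:21690398-21812357) encodes the co-receptor of neurturin. It had 1 peak in WT replicate 2, 3 in each 232P sample and none in WT replicate 1 or either 231K sample. The covered percent was 0 and 1.11 in WT, 0 and 0 for the 231K pair and 0.52 and 0.87 for the 232P pair, with WT and 232P overlapping. GFRA3 (ENSG00000146013.11, minus strand, chr5:138252380-138274621), the co-receptor of artemin, had no peak in its window, and the nearest peak was 51.2 to 1933 kb away.

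The peaks lay beside the CpG-rich main starts, whereas the farthest upstream start of BDNF was in a peak in all 6 samples. The main start itself was in a peak for 0 of the 8 genes in any sample, and for 8.55% of all genes, so that 0 of 8 is no departure from the other genes. All 98 peaks were poorer in CpG than the 1 kb on each side of the main start of their own gene. The same held for 99.9% of the peaks at genes whose start is above the median in CpG content, and for 87.8% of those at all genes with a peak. BDNF peaks had a median of 1.02 CpG per 100 bases, NGFR peaks 1.21 and NTRK3 peaks 2.34, whereas the starts of these genes had 7.55, 6.35 and 8.35. The main starts of 7 of the 8 genes were above the median of all genes, 96 CpG in the 1 kb on each side, GFRA3 with 81 being below. Over all genes, those with a promoter mark in all samples had a median of 52 CpG and those without a promoter mark 101. The main starts of BDNF with 151 and NGFR with 127 were richer in CpG than the median of either group. Peaks at BDNF reached into the 1 kb so counted. The mark of NGFR lay outside it, 2603 to 2808 bp from the main start, so its CpG count is not that of the marked start.

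**Figure D4:**
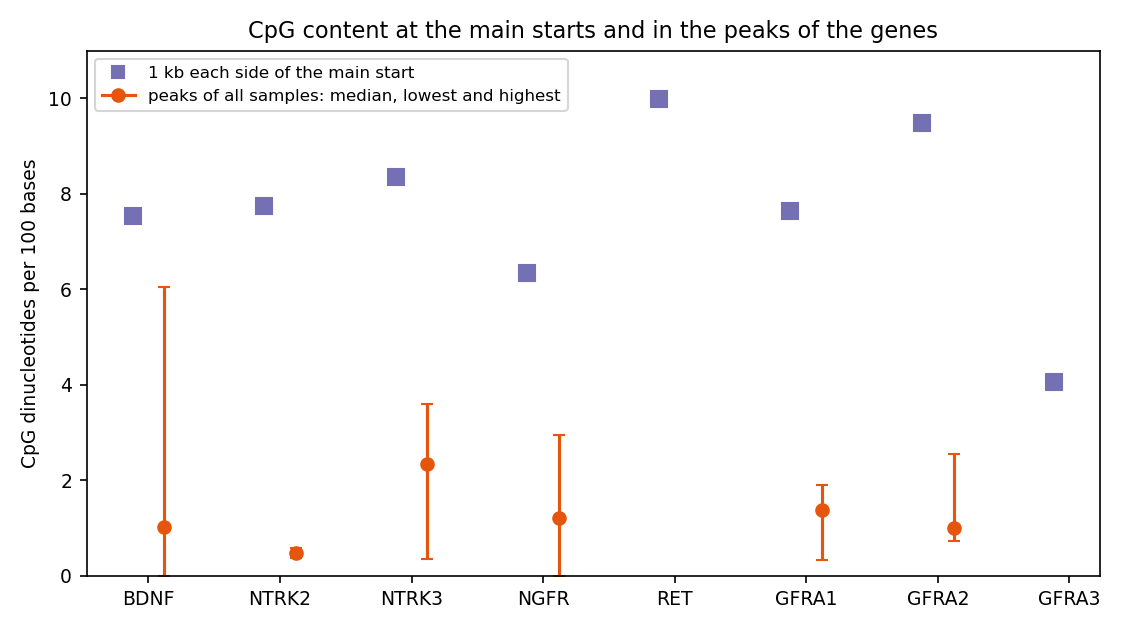
CpG dinucleotides per 100 bases (vertical axis) in the 1 kb on each side of the main start (squares) and in the peaks of all samples (circles, median with lowest and highest peak) of each gene. Every peak lies below the square of its gene, and RET and GFRA3 have no peaks.

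To see whether the loss of Tau went with a change at these genes, the covered percent was compared by limma on log2(percent + 1) over all genes with a mean of at least 1%. NGFR and BDNF passed this filter for the gene window and the promoters. GFRA1 passed it for the promoters only through Tau-KO samples, since both WT samples were at 0, and its fit is not used. No gene was called by this fit, which had genotype as its only term, at an adjusted p under 0.05 in any comparison, of 4630 windows or 4031 promoters, so the percent called was 0. With the replicate number as a block, 16 windows, all lower, were called in 232P against WT, without BDNF and NGFR. At an unadjusted p under 0.05 there were 49 windows for 231K against WT, 454 for 232P against WT and 343 for 231K against 232P, and 85 and 448 promoters for 231K and 232P against WT. In 232P the median difference of all genes was -0.93 for windows and -0.83 for promoters, against -0.04 and -0.09 in 231K. Without 232P replicate 1, the shift was -0.29 for windows and -0.39 for promoters, and without 232P replicate 2 it was -1.51 and -1.20. Each value of 232P is to be read beside this general shift.

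In 231K, BDNF differed from WT by -0.07 (SE 0.83) and NGFR by -0.16 (SE 0.76) on the log2 scale of the window, both with a limma adjusted p of 1. In 232P, BDNF differed by -0.69 (SE 0.83, limma adjusted p = 0.524) and NGFR by -0.35 (SE 0.76, limma adjusted p = 0.721). Without 232P replicate 1 these were 0.10 and 0.0026, and NGFR was 0.13 without WT replicate 2, so that the direction turned when 1 sample was left out. Centring each sample on its median turned these into 0.51 and 0.86, beside a median of 0.28 over all windows. Between 231K and 232P, BDNF differed by 0.62 (limma adjusted p = 0.595) and NGFR by 0.19 (limma adjusted p = 0.870). For the promoters, BDNF and NGFR differed from WT by -0.07 and 0.14 in 231K, and by -0.27 and -0.03 in 232P. None of these differences passed the test. With 3 residual degrees of freedom, a p that misses the threshold does not show that the genotypes were alike. In simulated data for 232P against WT, the fit called 0% of the changed windows or promoters at a log2 difference of 1. At a difference of 2 it called 3% of windows and 2% of promoters, and at 4 it called 55% and 41.5%.

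Within the replicate numbers, the difference of the BDNF window in percentage points, 231K minus WT, was 0.63 for replicate 1 and -3.03 for replicate 2, and 232P minus WT was -5.55 and -4.89. The NGFR window gave -0.90 and 0.43 in the line 231K, and -0.52 and -2.01 in the line 232P. For the windows, the sign thus depended on the replicate number for both genes in 231K and was negative for both in 232P. The NGFR promoters gave 0.71 and 1.37 in 231K, and 0.49 and -1.15 in 232P. The BDNF promoters gave 1.40 and -6.23 in 231K, and -8.66 and -1.70 in 232P. In an exact permutation test, two-sided, of the 4 Tau-KO samples against the 2 WT samples, which cannot give a p below 0.0667, the covered percent of the window gave, out of 12 values so tested and without adjustment, p = 0.667 for BDNF, 0.733 for NGFR and 0.267 for NTRK3. The test treats all samples as exchangeable, although the Tau-KO samples are pairs from the lines 231K and 232P. It also ignores the replicate number, by which the BDNF and NGFR windows differed in each genotype.

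Other genes of the pathway were looked up in 4 lists of ligands, receptors, adaptors and targets. Of 47 listed genes, 46 were annotated, 4 had a promoter mark in all samples, or 8.70%, and 31 had no peak in any, or 67.4%, which is near the 11.4% and 68.2% of all genes. The 4 were NTF3, LINGO1, DOK5 and NDN. NTF3, the gene of neurotrophin-3, was covered over 90.7 and 94.2% of its window in WT, 84.5 and 91.2% in 231K, and 63.6 and 79.0% in 232P, far more than its receptor NTRK3. LINGO1, a binding partner of NGFR, was covered over 0.17 to 0.46%. DOK5, an adaptor of receptor tyrosine kinases, had 49.2 and 57.6% in WT, 48.5 and 62.003% for the 231K pair and 20.1 and 43.3% for the 232P pair. NDN, a partner of NGFR, had 62.04 and 62.9% in WT, 55.0 and 55.9% for the 231K pair and 18.7 and 44.9% for the 232P pair. GFRA4, the fourth GFRA gene, had a promoter mark in both WT samples and in no Tau-KO sample. With each line taken alone, a mark in both WT samples and no sample of the line was found at 0.416% of all genes for 231K and 1.16% for 232P. The share for both lines at once was not counted. NPAS4, an activity-dependent transcription factor, had the mark in both WT samples and in no 232P sample. BDNF was thus marked less than its relative NTF3.

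Of 51 other receptor tyrosine kinase genes, 14, or 27.5%, had a promoter mark in all samples and 25 had no peak, against the 11.4% and 68.2% of all genes. The most covered were FLT3 with 48.9 to 91.5%, MET with 31.0 to 92.3% and AXL with 51.5 to 77.2%. NTRK2, NTRK3 and RET, with at most 0.72%, were far below these most covered genes. The median over the 51 genes of the mean covered percent was 0.0104. NTRK3 with a mean of 0.38 and NTRK2 with 0.034 were above it, and RET with 0 was below. As a check of the cell type, of 8 markers of other cell types 6 had a promoter mark in all samples.

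By the distance of log2(percent + 1) over the 6 samples, the genes most like BDNF were DPP6 (distance 0.485) and METTL18 (0.566), and those most like NGFR were SDK2 (0.503) and SCUBE3 (0.511). Genes within 1 Mb on the same chromosome, and the olfactory receptor and zinc finger gene families, were passed over in this search.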

How the data were processed

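The authors used trimmomatic for trimming and BWA for mapping to HG38, and each sample had its own MACS (version 2) peaks. Their methods name the broadPeak setting, but the deposited lists have the 10 columns of narrowPeak. The deposited fold enrichment is a ratio of summit reads to local background, with a pseudocount added to both. The deposited -log10 values are of p and q, and the deposited score is the latter multiplied by 10 and cut to a whole number, for at least 99.9995% of the peaks of each list. No list is normalized to another. The submitters' processing notes also name deepTools.

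Genes and starts came from GENCODE. No peak passed a chromosome end of hg38. Peaks were turned into the percent of bases covered per window, promoter and body. The differential analysis of the study starts from reads and was replaced by limma 3.58.1 (R 4.3.3) with a trend, genotype as the only term, a pseudocount of 1 and Benjamini-Hochberg adjustment. Summit reads were recovered from fold enrichment and p-value and were whole within 0.001 for 100% of peaks. Read totals are not in the lists, so no counting interval is given, and where a peak is missing, it was only under the threshold of its list. The replicates are called biological by the study, with no word on separate cultures, so p-values measure the spread between these samples only. Sequences came from hg38 and RefSeq promoters, which matched 6 of the 8 genes, NGFR and GFRA2 being without one.

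The 8 genes and all lists were chosen with earlier results of these data known. Genes named beyond them were those of the pathway lists with a promoter mark in all samples, or in both samples of 1 genotype and neither of another, the 3 most covered receptor tyrosine kinases and the 2 most like genes. Other alternatives are given in the closing section. The covered bases, the recovery of summit reads and the limma fit of 232P against WT were tested on simulated data. The result for 1 list of cell type markers is not reported here.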

Additional observations from a re-analysis of the deposited data

How the results depend on the processing

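No gene was called by limma at an adjusted p under 0.05 in the 5 comparisons, and this held for each other threshold, list size, depth, merging, weighting, pseudocount, filter, centring and window tried, and for BDNF and NGFR no alternative gave a call. Numbers of calls changed in the paired fit and when a sample was left out. With the replicate number as a block (replicate block), 16 windows, all lower, were called in 232P against WT, and 0 in the other comparisons. The labels do not state what the numbers mark. The deviations of same-numbered samples correlated across genes by 0.194 to 0.348 for windows and by 0.094 to 0.198 for promoters, and the smallest peak width split by number in all 3 genotypes. Leaving out each sample in turn gave 0 to 11 called windows in 231K against WT, 0 to 2828 in 232P against WT and 0 to 2695 in 231K against 232P, and 0 to 106 promoters in 231K and 0 to 788 in 232P against WT. The 2828, 2695 and 788 came without 232P replicate 2, where the lone 232P sample is assumed to vary like the other groups, and without 232P replicate 1 there were 57 windows in 232P against WT. The 66 promoters called without WT replicate 1 and the 106 without WT replicate 2, the same numbers in both lines, all had no spread among the samples left. The signs of small differences turned. In the window of NGFR, 231K against WT was 0.22 with a -log10 q-value of 5 or more, with equal numbers of peaks and with lists matched on background depth, and 232P against WT was 0.14 with the latter 2. NGFR moved further in 232P against WT with a -log10 q-value of 5 or more, where the window gave -1.89 (limma adjusted p = 0.474) and the promoters -3.24 (limma adjusted p = 0.398), and its promoter mark was then found in 2 WT, 2 231K and 0 232P samples, against 2, 0 and 0 for NTRK3. BDNF in 231K was 0.067 with a -log10 q-value of 5 or more. Merging peaks, weighting by fold enrichment and 2.5 kb promoters gave NGFR promoters in 231K -0.23, -0.10 and -0.34, and weighting gave BDNF promoters 0.0083. Centring gave BDNF windows 0.022 in 231K, 0.51 in 232P and -0.49 in 231K against 232P, NGFR windows 0.86 and -0.93 in the latter comparisons, BDNF promoters 0.043 and 0.76 and NGFR promoters in 232P 1.00. Leaving out samples gave windows of NGFR from -0.87 to 0.56 in 231K, from -0.82 to 0.13 in 232P and from -0.53 to 0.90 between the lines, and windows of BDNF from -0.55 to 0.41, from -1.49 to 0.10 and from -0.17 to 1.42. For promoters it gave NGFR -0.18 to 0.47 and BDNF -0.40 to 0.26 in 231K, and NGFR -0.34 to 0.28 and BDNF -0.82 to 0.27 in 232P. The cause of these turns was not tested. A promoter mark in all samples was left at 1 gene, BDNF, with a -log10 q-value of 5 or more. The same held with 50% of the 2 kb around a start covered. It was found at 3 genes, NTRK3 added, with 2.5 kb promoters or without 232P replicate 2. Of all 19970 genes, these settings gave 556, 599, 2979 and 2426 in that order, against 2281 in the main setting.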
